A study of Mus musculus with 12 samples.

Results

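Collagens form the fibres and sheets of the extracellular matrix, and their genes were followed here with those of 3 partners, nidogen 1 (Nid1), the collagen-binding glycoprotein Sparc and the metalloproteinase inhibitor Timp1. Members were all probes whose symbol in the platform annotation is a collagen alpha chain (Col, a number, a, a number), Nid1, Sparc or Timp1. They stood for 41 of the 16675 genes named on the array, of which 38 were collagens, and made up 60 of its 29922 probes. More than 1 probe was present for 16 of the genes, and the collagen VI gene Col6a1 was not analysed here because no probe carried its symbol.

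RNA from tissue labelled as muscle of BALB/c mice had been hybridised to 12 arrays of 1 colour, with 3 arrays in each of 4 groups. The groups were diabetic mice given 2.5 nmol mcIRBP, diabetic mock mice, normal mice given the same dose of mcIRBP, and normal mock mice. mcIRBP is an insulin receptor-binding protein of bitter melon (Momordica charantia), and the mock mice of either state were labelled untreated. All diabetic mice were labelled male and all normal mice female, and the authors had normalized the arrays of the 2 disease states separately. Disease state, sex and normalization set therefore cannot be told apart in any comparison between diabetic and normal mice. The diabetic samples carry the code DM1 in their titles, and the labels used here give neither the age of the mice nor how diabetes arose. The labels also do not say whether the 3 arrays of a group came from 3 mice, so p-values measure only the spread between these arrays, which may be technical.

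Levels are given as log2 intensities after background correction and quantile normalization of the 12 arrays. The detection threshold of an array was set at the mode of its log2 raw intensities plus 5 SD of the values mirrored below that mode. Values near 6 on the log2 scale lie at the floor, where an offset of 50 compresses differences. A gene rose, fell or was called below only where limma's Benjamini-Hochberg adjusted p over all probes was under 0.05. A log2 fold change is given with its standard error (SE), and levels of different probes were not set against each other.

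The diabetic mcIRBP arrays had between 4685 and 8332 probes above the threshold, the diabetic mock arrays between 9489 and 12941, the normal mcIRBP arrays between 6634 and 8248 and the normal mock arrays between 2551 and 3768. The markers of skeletal muscle were mostly below it. Of 20 such genes, the diabetic mcIRBP group had 4 that passed it on each array, the diabetic mock group 6, the normal mcIRBP group 3 and the normal mock group 1. Their summed linear intensities above the offset were 425.6 to 776, 377.3 to 489.1, 536.9 to 907.3 and 822 to 1126, in the same order. The normal mock group, with the fewest genes above, thus had the highest sums, and also the highest thresholds. The fast-fibre genes Tnnt3, Tnni2 and Actn3 were below the threshold on all 12 arrays. Markers of other tissues were bright in some groups, and their levels are given after the members.

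Basement membranes are thin sheets that surround muscle fibres, fat cells and capillaries. Their core is a network of type IV collagen, joined to a laminin network by nidogen and perlecan, while Sparc binds collagens and takes part in their deposition. Outside the sheet lie beaded filaments of type VI collagen and fibrils of types I, III and V, with the multiplexins XV and XVIII at the border between the layers.

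Of the 41 genes, 21 were above the threshold on at least 1 array and 20, all collagens, on none. Those on no array included the cartilage chains Col2a1, Col9a1, Col9a2, Col9a3 and Col10a1 and the type IV chains Col4a3, Col4a4 and Col4a6, which are known from specialised basement membranes such as that of the kidney glomerulus. At the level of probes, 35 of the 60 were above the threshold on no array. Only Col3a1, Col4a1, Col4a2 and Sparc were above it on all 12 arrays. On all 3 arrays of a group, 8 genes were above the threshold in diabetic mcIRBP mice, 18 in diabetic mock mice, 11 in normal mcIRBP mice and 5 in normal mock mice. The corresponding shares of the 60 probes were 13.3%, 30%, 18.3% and 8.33%, against 15.2%, 30.3%, 17.2% and 7.15% of all probes, so the members followed the arrays as a whole.

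**Figure D1:**
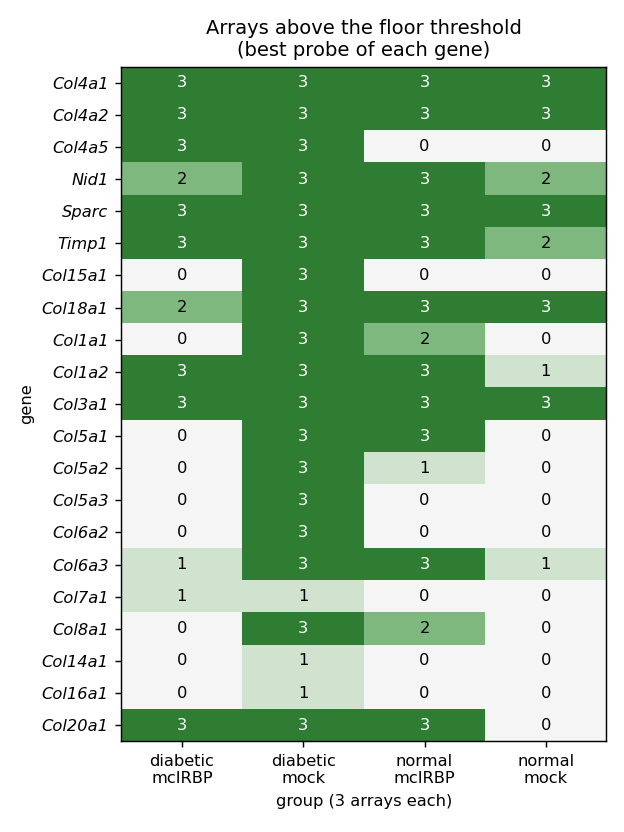
Number of arrays (0 to 3) on which each of the 21 member genes ever above the floor threshold lay above it, by group, taking for each gene the probe seen most often. The diabetic mock column is the fullest, with 18 genes at 3 arrays, and the normal mock column the emptiest, with 5.

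The members were first compared between diabetic mice with and without mcIRBP. Col4a1, Nid1, Sparc and Col15a1 fell, and each was lower on every diabetic mcIRBP array than on any diabetic mock array, as was the beaded filament gene Col6a2. Such separation was common, as the 2 groups did not overlap for 27 of the 60 member probes and 35.4% of all probes. Of the 8 probes of network-forming basement membrane collagens, Col4a1 was the 1 called, and 3 had an unadjusted p under 0.05. Of the 60 member probes 5 fell and 1 rose (10%), where 3.02% of all probes fell and 3.69% rose. The median log2 fold change of the 60 was -0.02, against 0.01 over all probes, and 13 members had an unadjusted p under 0.05. Fewer cells of a type and less RNA per cell cannot be told apart in such tissue samples. Adipocyte, endothelial and fibroblast markers were lower on the same diabetic mcIRBP arrays and epididymis markers higher, and their sums are given after the members.

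The type IV chains alpha 1 and alpha 2 are encoded by neighbouring genes that start close together and are transcribed in opposite directions. In RefSeq (GRCm38.p6), Col4a1 lies on chromosome 8 from 11198423 to 11312889 on the minus strand, and Col4a2 from 11312805 to 11449287 on the plus strand, with the transcript starts used here at 11312826 for Col4a1 and 11312805 for Col4a2, 21 bases apart. The 250 bases before these starts do not overlap. The RefSeq windows, which run on for 50 bases from each start, have 78 bases in common, chr8:11312777-11312854 on the plus strand. This stretch around the starts is shown because it holds the beginnings of both transcripts, with the single GGGCGG in capitals.
Col4a1 and Col4a2 start region: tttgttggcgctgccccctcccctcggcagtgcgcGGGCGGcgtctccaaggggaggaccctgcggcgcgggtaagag

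Col4a1 (probe mMC014303) had log2 intensities of 7.32, 7.18 and 7.18 on the diabetic mcIRBP arrays, against 9.20, 9.27 and 9.17 on the diabetic mock arrays. Its raw intensities were 165, 136 and 80 with mcIRBP, against 981, 2123 and 895 with mock. All 3 treated arrays thus lay far below all 3 mock arrays, on either scale. Col4a1 fell by 1.98 on the log2 scale (SE 0.48, adjusted p = 0.0365 in limma). Col4a2 (probe mMC008904) had 7.81, 7.78 and 8.29 on the diabetic mcIRBP arrays, against 9.74, 9.44 and 9.75 on the diabetic mock arrays. Its arrays were just as clearly separated, but the difference of -1.68 (SE 0.60, log2 scale) had an adjusted p of 0.165. The SE of both genes takes in the wide spread of the normal mcIRBP arrays described below. In a fit of the 6 diabetic arrays alone, the log2 fold changes were -2.20 for Col4a1 (adjusted p = 3.861e-05) and -1.85 for Col4a2 (adjusted p = 0.00244). In the 12-array fit the call of Col4a1 was lost when any 1 of the 6 diabetic arrays was left out, with log2 fold changes of -1.99 to -1.91 and adjusted p of 0.0908 to 0.127.

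The third detected type IV chain was not called. Col4a5 (probe mMC014537, chromosome X), the alpha 5 chain, had 6.44, 6.63 and 7.04 on the diabetic mcIRBP arrays, against 6.56, 6.21 and 6.16 on the diabetic mock arrays. These groups overlapped, and the log2 fold change of 0.39 had an adjusted p of 0.279. Its other probe, mMR027153, was above the threshold on 1 diabetic mock array only.

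Nid1, whose product links the collagen IV and laminin networks, had log2 intensities of 6.32, 6.47 and 6.48 on the diabetic mcIRBP arrays, against 8.05, 7.97 and 7.94 on the diabetic mock arrays. The groups did not overlap, and 2 of the 3 treated arrays were above the threshold. Nid1 fell by 1.57 on the log2 scale (SE 0.27, adjusted p = 0.00507). Sparc, a matricellular glycoprotein that binds collagens, had 8.39, 8.67 and 8.33, against 9.34, 9.55 and 9.26 on the diabetic mock arrays. All treated arrays were again lower, by 0.92 on the log2 scale on average (SE 0.16, adjusted p = 0.00493). Timp1, which inhibits matrix metalloproteinases, did not follow them. It had 7.94, 8.04 and 8.14 on the diabetic mcIRBP arrays, against 7.89, 7.81 and 7.80 on the diabetic mock arrays, slightly higher with no overlap (log2 fold change 0.21, SE 0.10, adjusted p = 0.407).

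Col15a1, a multiplexin that anchors basement membranes to the fibrillar matrix and is known from muscle and capillaries, had the lowest p of the members. Its log2 intensities were 5.73, 5.74 and 5.74 on the diabetic mcIRBP arrays, against 6.56, 6.47 and 6.46 on the diabetic mock arrays. The treated arrays all lay at the floor and the mock arrays just above the threshold. Col15a1 was at least 1.11-fold lower (fitted log2 fold change -0.76, SE 0.06, adjusted p = 2.845e-05). Col18a1, the source of endostatin, had 6.53, 6.59 and 6.01 on the diabetic mcIRBP arrays, against 6.53, 6.83 and 6.56 on the diabetic mock arrays. These values overlapped (log2 fold change -0.26, adjusted p = 0.655).

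The 250 bases before the RefSeq start of Col15a1, Nid1 and Sparc are given. These genes fell in diabetic mice under every alternative processing tried, as did Col6a2, whose bases are not shown. Col15a1 spans 47207655 to 47313167 on chromosome 4, Nid1 13437602 to 13512275 on chromosome 13 and Sparc 55394159 to 55420080 on chromosome 11. The printed stretches lie at chr4:47207762-47208011 (plus strand), chr13:13437352-13437601 (plus strand) and chr11:55420081-55420330 (minus strand), and that of Col15a1 falls within the span of the gene because another transcript starts earlier. Matches to 3 motifs, searched as written and as their reverse complements, stand in capitals. They were the CCAAT box with the letters CCAAT, the Sp1 box with the letters GGGCGG and the TATA box with the letters TATAAA. The CCAAT and Sp1 letters can share bases at their ends, and do not in the sequences printed. The Nid1 stretch held 1 CCAAT and 1 GGGCGG, and the Col15a1 and Sparc stretches held none of the 3 motifs.
Col15a1: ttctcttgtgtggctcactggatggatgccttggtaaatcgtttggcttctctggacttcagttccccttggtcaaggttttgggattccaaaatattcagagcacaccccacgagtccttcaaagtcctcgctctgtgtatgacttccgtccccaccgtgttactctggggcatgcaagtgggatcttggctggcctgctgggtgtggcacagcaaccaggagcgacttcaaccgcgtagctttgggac
Nid1: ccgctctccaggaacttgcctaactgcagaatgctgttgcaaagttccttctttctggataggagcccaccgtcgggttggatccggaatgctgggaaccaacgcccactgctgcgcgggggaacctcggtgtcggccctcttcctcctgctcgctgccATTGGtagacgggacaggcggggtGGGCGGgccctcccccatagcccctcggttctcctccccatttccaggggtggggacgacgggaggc
Sparc: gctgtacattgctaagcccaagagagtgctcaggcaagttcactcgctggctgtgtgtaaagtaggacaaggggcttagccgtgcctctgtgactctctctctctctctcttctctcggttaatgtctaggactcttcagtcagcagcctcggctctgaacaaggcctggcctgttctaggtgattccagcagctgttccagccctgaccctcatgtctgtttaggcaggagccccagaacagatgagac

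Promoter windows were present in the RefSeq table for 33 of the 41 genes, as 36 windows. GGGCGG occurred in 58.3% of these windows, against 32.7% of all 32851 windows of the same 250 bases. For CCAAT the shares were 38.9% and 33.8%, and for TATAAA 13.9% and 12.4%. A match describes letters and not a bound site.

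Among the fibrillar and beaded filament chains, only Col6a2 was called in the 12-array fit. Col3a1 (probe mMC019473), the chain of type III collagen, had log2 intensities of 8.07, 8.10 and 8.16 on the diabetic mcIRBP arrays, against 9.12, 9.10 and 8.98 on the diabetic mock arrays. The groups were narrow and separate, yet the adjusted p of their log2 fold change, -0.96 (SE 0.51), was 0.468 in the 12-array fit. Over the 6 diabetic arrays it was -1.06 (adjusted p = 0.000263). The other Col3a1 probe, mMC007483, was above the threshold on no array. Col5a1, which helps to start fibrils of type I collagen, had 6.04, 6.13 and 6.31, against 6.66, 6.69 and 6.84 on the diabetic mock arrays (log2 fold change -0.57, adjusted p = 0.154). Over the 6 diabetic arrays that value was -0.72 (adjusted p = 0.00808).

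Col1a2, the alpha 2 chain of type I collagen, had overlapping values of 7.41, 7.66 and 7.30 on the diabetic mcIRBP arrays, against 7.39, 7.66 and 7.45 on the diabetic mock arrays. Its log2 fold change of -0.04 had a 95% interval of -0.71 to 0.62. Col1a1, the alpha 1 chain, was above the threshold on the 3 diabetic mock arrays only (log2 fold change -0.27, adjusted p = 0.13). Of the 19 probes of fibrillar collagens 0 were called in the 12-array limma fit, and 3 had an unadjusted p under 0.05.

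Col6a2, a chain of the collagen VI filaments that lie against the muscle basement membrane, fell. It had 5.83, 5.84 and 5.74 on the diabetic mcIRBP arrays, all below the threshold, against 6.31, 6.27 and 6.14 on the diabetic mock arrays, all above it. The fitted log2 fold change was -0.44 (SE 0.08, adjusted p = 0.0069), with no bound above 1 on the linear scale. Col6a3 (probe mMR029325) had 6.26, 6.12 and 6.48, against 6.97, 6.84 and 6.94 on the diabetic mock arrays (log2 fold change -0.63, adjusted p = 0.19). Over the 6 diabetic arrays it fell by 0.76 on the log2 scale (adjusted p = 0.0141), while its other 2 probes stayed at the floor.

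Col7a1 was the member that rose. Its product forms the anchoring fibrils beneath epithelia. The probe mMR028490 had 6.21, 6.15 and 6.19 on the diabetic mcIRBP arrays, against 5.90, 5.96 and 5.93 on the diabetic mock arrays, with 1 array of each group above the threshold. The log2 fold change was 0.26 (SE 0.05, adjusted p = 0.0116), and the other Col7a1 probe was above the threshold on no array. The call was lost without diabetic mock replicate 1 (adjusted p = 0.0699) or 3 (0.0604), without diabetic mcIRBP replicate 1 (0.0641) and under median scaling (0.199).

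The number of members called in diabetic mice depended on the processing, and 15 fell and 0 rose when arrays were scaled to a common median in place of quantile normalization, with 3267 of all probes lower and 783 higher. Under that scaling the log2 fold changes were -3.06 for Col4a1 (adjusted p = 0.00878), -2.88 for Col4a2 (0.0117), -2.48 for Nid1 (0.00511), -2.00 for Sparc (0.033) and -1.28 for Col6a3 (0.0368). Timp1 then had a value of -0.76 (adjusted p = 0.186), opposite in sign to that with quantile normalization. Over the 6 diabetic arrays alone 12 members fell and 1 rose, where 2516 of all probes fell and 1736 rose. Col15a1, Sparc, Nid1 and Col6a2 were called lower under all 13 alternatives tried for them.

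**Figure D2:**
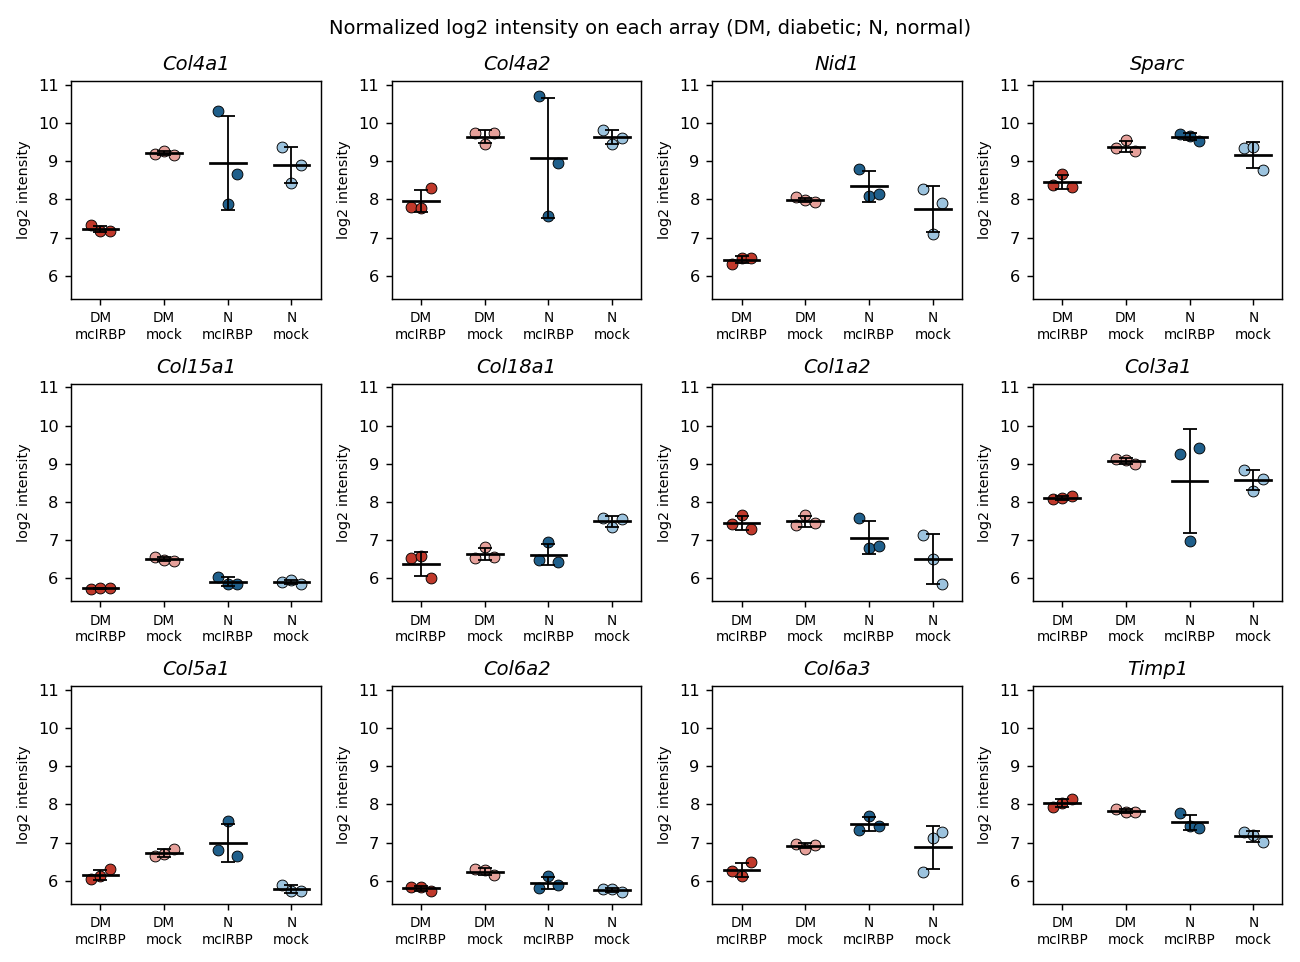
Log2 intensity (vertical axes, no unit) of 12 member probes on each of the 12 arrays, by group, with points for arrays, a long bar for the mean and short bars for 1 SD on either side. For Col4a1, Nid1 and Sparc the 3 diabetic mcIRBP points lie below those of every other group, and the normal mcIRBP points of Col4a1, Col4a2 and Col3a1 are widely spread.

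Normal mice with and without mcIRBP were compared in the same way. Col5a1 rose and Col18a1 fell, while Col4a1, Col4a2, Nid1 and Sparc were not called. Of the 60 member probes 2 rose and 3 fell (8.33%), where 3.57% of all probes rose and 2.77% fell. The median log2 fold change of the members was 0.03, against -0.003 over all probes, and 14 had an unadjusted p under 0.05. The 2 groups did not overlap for 16 of the 60 and for 18.7% of all probes. Liver markers were bright on the normal mock arrays alone, with sums given after the members.

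Col5a1 had log2 intensities of 6.80, 7.56 and 6.64 on the normal mcIRBP arrays, against 5.90, 5.72 and 5.74 on the normal mock arrays. All treated arrays passed the threshold, no mock array did, and the fitted rise was 1.21 on the log2 scale (SE 0.20, adjusted p = 0.0048), with no bound above 1. Col18a1 had 6.49, 6.95 and 6.43, against 7.59, 7.33 and 7.56 on the normal mock arrays, and fell by 0.87 on the log2 scale (SE 0.18, adjusted p = 0.0174). Col8a1, a short-chain collagen known from vessel walls, had 6.04, 6.35 and 6.50, against 5.90, 5.86 and 5.95 on the normal mock arrays (log2 fold change 0.39, adjusted p = 0.0487).

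The other 2 calls, Col27a1 at -0.40 (adjusted p = 0.0079) and Col11a1 at -0.24 (adjusted p = 0.00846) on the log2 scale, came from probes below the threshold in both groups, and the second probe of each gene was not called. Over the 6 normal arrays alone, under median scaling and with the authors' deposited normalized values, 0 members were called by limma, with 11, 13 and 10 at an unadjusted p under 0.05. The shares of all probes called were 1.65%, 0.976% and 1.8%. In that order of settings Col5a1 had log2 fold changes of 0.90, 1.34 and 1.03 with adjusted p of 0.167, 0.167 and 0.172. For Col18a1 they were -0.77, -0.04 and -0.85, with adjusted p of 0.0567, 0.966 and 0.0759. Of all probes 31 rose and 261 fell under median scaling, against 1069 and 829 with quantile normalization. The call of Col18a1 was also lost without normal mock replicate 3 (adjusted p = 0.0541) or normal mcIRBP replicate 3 (0.063), and that of Col8a1 without 5 of the 6 normal arrays in turn (adjusted p of 0.0719 to 0.111).

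Col4a1, Col4a2 and Col3a1 varied widely among the normal mcIRBP arrays. Col4a1 had 10.31, 7.89 and 8.67 there, against 9.37, 8.43 and 8.91 on the normal mock arrays. Its raw intensities were 1256, 416 and 245 with mcIRBP, against 291, 225 and 230 with mock. After quantile normalization the treated values reached both above and below the mock values, while no raw treated value lay below the mock range (log2 fold change 0.05, 95% interval -1.03 to 1.13, adjusted p = 0.962). Col4a2 ranged in the same way, with 10.72, 7.57 and 8.96, against 9.82, 9.46 and 9.62 on the normal mock arrays (log2 fold change -0.55, adjusted p = 0.622). It was called at -1.37 without normal mcIRBP replicate 1 (adjusted p = 0.0436).

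Col3a1 had 9.27, 6.97 and 9.41 on the normal mcIRBP arrays, against 8.84, 8.29 and 8.60 on the normal mock arrays. Replicate 2 of the treated group was the low array, and without it the log2 fold change of -0.03 became 0.77 (adjusted p = 0.0092). The fibroblast markers were low on the same array, with a summed level of 7587 against 22370 and 23890 on replicates 1 and 3. The Schwann cell and nerve markers were low likewise, with 183.7 against 425 and 563.1, but 4 of those 7 markers passed the threshold on no normal mcIRBP array. The adipocyte, macrophage and endothelial sums were the highest of the group on replicate 2, at 77080, 2281 and 1879. The part of these cell types in the value of Col3a1 was not tested. Nid1 had 8.80, 8.09 and 8.14, against 8.28, 7.11 and 7.90 on the normal mock arrays (log2 fold change 0.58, adjusted p = 0.242). Sparc had 9.72, 9.67 and 9.54, against 9.34, 9.37 and 8.78 on the normal mock arrays. The Sparc groups did not overlap, with a difference of 0.48 on the log2 scale (SE 0.16, adjusted p = 0.11). Under median scaling the log2 fold changes were larger, at 1.46 for Nid1 (adjusted p = 0.157), 1.497 for Sparc (0.189) and 1.07 for Col4a1 (0.306), and those of Col4a2 and Col3a1 were 0.54 (0.62) and 0.87 (0.323), opposite in sign to the values above.

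Timp1 and the type I chains were also uncalled. Timp1 had 7.76, 7.44 and 7.39 on the normal mcIRBP arrays, against 7.28, 7.19 and 7.02 on the normal mock arrays. Its groups did not overlap (log2 fold change 0.37, adjusted p = 0.0657), and without normal mock replicate 1 it was called at 0.45 (adjusted p = 0.0442). Col1a2 had 7.57, 6.79 and 6.85, against 7.14, 6.52 and 5.84 on the normal mock arrays, which overlapped (log2 fold change 0.57, adjusted p = 0.305). Col1a1 differed by 0.33 on the log2 scale (adjusted p = 0.0579) and was called at 0.42 without normal mcIRBP replicate 3 (adjusted p = 0.0369). Col6a3 had 7.33, 7.70 and 7.42, against 6.23, 7.13 and 7.28 on the normal mock arrays (log2 fold change 0.60, adjusted p = 0.171). Col6a2 was below the threshold on all 6 arrays, and Col15a1 likewise. For Col1a2 and Col6a3 only 1 of the 3 normal mock arrays was above the threshold, and for Nid1 and Timp1 2 were.

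The difference between the mcIRBP effects, diabetic minus normal, was tested in the same model. The effects rest on separate arrays. Of the 60 member probes 8 had a lower and 2 a higher effect in diabetic mice (16.7%), where 4.91% of all probes had a lower and 4.31% a higher one. Under median scaling 4894 of all probes had a lower and 1403 a higher one, against 1470 and 1290 with quantile normalization. Nid1 differed by -2.15 on the log2 scale (SE 0.38, adjusted p = 0.00517) and Sparc by -1.41 (SE 0.22, adjusted p = 0.00261). Both fell in diabetic mice and had positive, uncalled values in normal mice. Col5a1 differed by -1.78 (SE 0.28, adjusted p = 0.0024), Col15a1 by -0.78 (adjusted p = 0.000232) and Col6a2 by -0.63 (adjusted p = 0.00547). These 5 were called under all 17 alternatives tried, among them median scaling, which gave -3.94 for Nid1 and -3.49 for Sparc. Where groups without an array above the threshold were placed at the threshold, the differences of Nid1 and Sparc did not move, while that of Col5a1 shrank to -0.38, that of Col15a1 to -0.15 and that of Col6a2 to 0.

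Col4a1 differed by -2.03 (SE 0.68, adjusted p = 0.109) and was not called with quantile normalization. Without normal mcIRBP replicate 1 its difference was -1.35 (adjusted p = 0.0476), and without replicate 2 it was -2.56 (adjusted p = 0.017). Col3a1 differed by -0.93 (adjusted p = 0.512), and by -1.73 (adjusted p = 0.000241) without normal mcIRBP replicate 2. Col4a2 differed by -1.14 (adjusted p = 0.49) and Timp1 by -0.16 (adjusted p = 0.574, 95% interval -0.49 to 0.16). Under median scaling Col4a1, Col4a2 and Timp1 were called, at -4.13 for Col4a1 (adjusted p = 0.0113), -3.42 for Col4a2 (0.021) and -1.82 for Timp1 (0.0366).

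**Figure D3:**
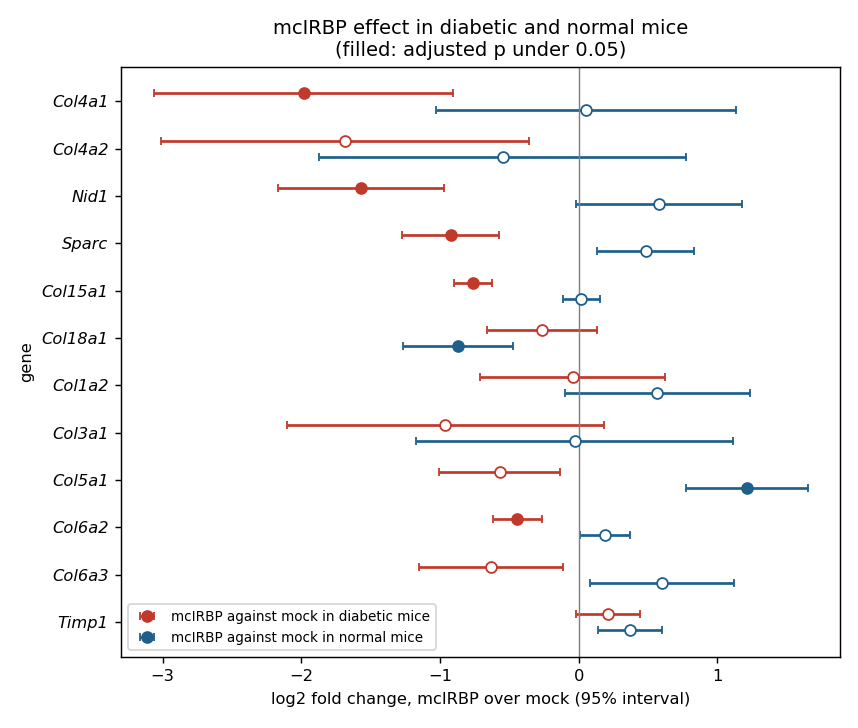
Log2 fold change of mcIRBP over mock for 12 member genes in diabetic mice (red, upper point of each pair) and in normal mice (blue, lower point), with 95% intervals from limma and filled points for an adjusted p under 0.05. Nid1 and Sparc lie below 0 in diabetic mice and above 0 in normal mice.

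Diabetic mock mice were set against normal mock mice to show the members without treatment. Timp1, Col15a1, Col5a1 and Col6a2 rose and Col18a1 fell, while Col4a1, Col4a2, Nid1, Sparc and Col3a1 were not called. In all, 6 member probes were higher and 5 lower (18.3%), where 4.73% of all probes were higher and 3.98% lower. The median log2 fold change of the members was 0.009, against -0.016 over all probes. The mock groups did not overlap for 35 of the 60 member probes and for 37.9% of all probes. Of the 11 member calls 4 came from probes below the threshold in both groups, namely of Col11a1, Col27a1, Col22a1 and Col25a1, with log2 fold changes of -0.37 to 0.20. The calls of Col27a1 and Col22a1 were lost without diabetic mock replicate 1 or 3 (adjusted p of 0.0608 to 0.0855), and that of Col25a1 without normal mock replicate 2 or 3 or any 1 diabetic mock array (0.0917 to 0.136).

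Timp1 had the log2 intensities 7.89, 7.81 and 7.80 on the diabetic mock arrays, against 7.28, 7.19 and 7.02 on the normal mock arrays, a rise of 0.67 (SE 0.10, adjusted p = 0.00324), or of 2.18 under median scaling (adjusted p = 0.00235). Col15a1, at 6.56, 6.47 and 6.46, was above the threshold on all 3 diabetic mock arrays, against 5.90, 5.95 and 5.84 on the normal mock arrays, all below it (fitted log2 fold change 0.60, adjusted p = 0.000158). Col5a1 differed in the same way, with 6.66, 6.69 and 6.84 in diabetic and 5.90, 5.72 and 5.74 in normal mock mice (0.95, adjusted p = 0.0163). The call of Col5a1 was lost when any 1 of the diabetic mock arrays was left out (adjusted p of 0.0598 to 0.0795). Col6a2 had a fitted log2 fold change of 0.48 (adjusted p = 0.00488) and Col5a3, a further chain of type V collagen, one of 0.35 (adjusted p = 0.0196), which was lost without normal mock replicate 2 (adjusted p = 0.0516) or diabetic mock replicate 1 (0.0869) or 3 (0.0894). For Col15a1, Col5a1, Col6a2 and Col5a3 the bound did not reach 1. Their diabetic mock means lay under 6.76, the lowest value above the threshold on any normal mock array. Col1a2 was not called at 1 (SE 0.30, adjusted p = 0.0692) but was at 1.37 without normal mock replicate 1 (adjusted p = 0.014).

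Col18a1 had 6.53, 6.83 and 6.56 on the diabetic mock arrays, against 7.59, 7.33 and 7.56 on the normal mock arrays, a fall of 0.85 on the log2 scale (SE 0.18, adjusted p = 0.0172). Under median scaling its direction turned, to 0.46 (adjusted p = 0.322), and the call was lost without normal mock replicate 3 (adjusted p = 0.0522) or diabetic mock replicate 1 (0.0729) or 3 (0.0715). Col16a1, a fibril-associated collagen, was lower at -0.38 (adjusted p = 0.036), with only 1 of the 6 arrays above the threshold, and this call was lost without normal mock replicate 3 or any 1 diabetic mock array (adjusted p of 0.0579 to 0.133).

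Scaling decided how the basement membrane genes compared between the mock groups. With quantile normalization Col4a1 differed by 0.31 on the log2 scale (adjusted p = 0.72), Nid1 by 0.23 (adjusted p = 0.616) and Sparc by 0.23 (adjusted p = 0.381). Under median scaling the same values were 2.33 (adjusted p = 0.00959), 1.95 (adjusted p = 0.00512) and 2.32 (adjusted p = 0.00699). Members called were then 23 higher and 12 lower, and of all probes 10073 were higher and 5019 lower.

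Diabetic mcIRBP mice were last set against normal mcIRBP mice, a comparison that shares its arrays with the others. Sparc, Nid1, Col4a1, Col5a1 and Col6a3 were lower in the diabetic mice, and Timp1 and Col4a5 higher. Here 3 member probes rose and 7 fell (16.7%), where 6.07% of all probes rose and 5.65% fell. The median log2 fold change of the 60 was -0.04, against -0.011 over all probes. The mcIRBP groups did not overlap for 21 of the 60 and for 33% of all probes. Of all probes 1116 rose and 291 fell under median scaling, against 1816 and 1692 with quantile normalization.

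Sparc had 8.39, 8.67 and 8.33 on the diabetic mcIRBP arrays, against 9.72, 9.67 and 9.54 on the normal mcIRBP arrays (log2 fold change -1.18, SE 0.16, adjusted p = 0.000834). Under median scaling that value was -1.18 with an adjusted p of 0.245. Nid1, with 6.32, 6.47 and 6.48 in diabetic and 8.80, 8.09 and 8.14 in normal mcIRBP mice, fell by 1.92 (SE 0.27, adjusted p = 0.00115). Col6a3 fell by 1.20 (SE 0.23, adjusted p = 0.00806), and Col5a1 was at least 1.57-fold lower (adjusted p = 0.0211), a call lost without diabetic mcIRBP replicate 1 (0.0682) or 2 (0.0719). Under median scaling the adjusted p was 0.0699 for Col6a3 and 0.2 for Col5a1, and over the 6 arrays alone it was 0.114 for Col5a1. Col4a1 had 7.32, 7.18 and 7.18 in diabetic and 10.31, 7.89 and 8.67 in normal mcIRBP mice (log2 fold change -1.73, SE 0.48, adjusted p = 0.0458). Its call was lost under median scaling (adjusted p = 0.112), over the 6 arrays alone (0.173), and without any 1 diabetic mcIRBP array or normal mcIRBP replicate 3 (0.0766 to 0.122). Without normal mcIRBP replicate 2, Col4a2 and Col3a1 were called too, at -1.88 (adjusted p = 0.017) and -1.23 (adjusted p = 0.00032).

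Col4a5 was above the threshold on all 6 diabetic arrays and on none of the 6 normal arrays. Its diabetic mock values of 6.56, 6.21 and 6.16 would not have passed the higher thresholds of the normal mock arrays (6.76 to 7.14). Between the mock groups it was not called. With 6.44, 6.63 and 7.04 on the diabetic mcIRBP arrays, against 6.04, 5.75 and 5.71 on the normal mcIRBP arrays, it was at least 1.35-fold higher (adjusted p = 0.00733). Timp1 was higher by 0.51 on the log2 scale (SE 0.10, adjusted p = 0.0102), but by 0.36 (adjusted p = 0.636) under median scaling and with an adjusted p of 0.066 over the 6 arrays alone. Col7a1 was higher by a fitted 0.33 (adjusted p = 0.00203) with the normal arrays below the threshold, and this call was lost under median scaling (0.32, adjusted p = 0.087). Col1a1, at -0.33 (adjusted p = 0.0404), and Col5a2, at -0.19 (adjusted p = 0.0259) with both groups below the threshold, were called lower near the floor. Both calls were lost without normal mcIRBP replicate 2 or any 1 diabetic mcIRBP array. That of Col1a1 was also lost without normal mcIRBP replicate 1 (adjusted p of 0.0607 to 0.139 in these runs) and under median scaling (0.275). Over the 6 arrays alone the calls of Col1a1 (0.105) and Col5a2 (0.0737) were lost. The other probes of Col5a2 were not called, with means of 6.06 in diabetic against 5.96 in normal mcIRBP mice (mMC008384) and 5.86 against 6.21 (mMR028753).

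The genes that build, modify and sense the matrix gave the setting of the members, at 1 probe for each of 16675 genes. In diabetic mice 4.19% of these genes fell with mcIRBP and 5.19% rose. Of 23 genes of collagen synthesis and crosslinking 3 fell and 2 rose. The proline isomerase gene Ppib rose by 1.67 on the log2 scale (adjusted p = 7.286e-06) and P4ha2, a subunit of a prolyl hydroxylase, by 1.46 (adjusted p = 0.000522). Serpinh1, the collagen chaperone, fell by 0.66 (adjusted p = 0.00354).

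Of 20 laminins and other basement membrane genes 3 fell and 1 rose in diabetic mice. The laminin chain gene Lamb1-1 fell by 1.49 on the log2 scale (adjusted p = 0.0052) and Smoc1, a basement membrane protein related to Sparc, by 1.65 (adjusted p = 1.687e-05), while the laminin chain gene Lama4 rose by 1.33 (adjusted p = 0.00807). Of 37 interstitial matrix genes 7 fell and 1 rose. Among them the dermatopontin gene Dpt fell by 1.67 (adjusted p = 0.00162), and the small proteoglycan genes Prelp and Ogn fell by 1.40 and 0.81 (adjusted p = 7.905e-05 and 0.000279).

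The lists of degradation and signalling also held calls in diabetic mice. Of 20 metalloproteinases and inhibitors 3 fell, with the inhibitor gene Timp4 lower (log2 fold change -2.035, SE 0.43, adjusted p = 0.0166). Of 15 collagen and laminin receptors 2 fell, Itga6 at least 1.315-fold (adjusted p = 0.0429) and Cd44 at least 1.06-fold (adjusted p = 0.0159). Of 20 genes of transforming growth factor beta signalling 3 fell, namely the receptors Tgfbr2 by 2.36 (adjusted p = 0.000289) and Tgfbr3 by 1.56 (adjusted p = 0.00264) and the coreceptor Eng at least 1.45-fold (adjusted p = 0.0309). The median log2 fold changes of the 6 lists lay between -0.24 and 0.05, against 0.008 over all genes.

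In normal mice 4.76% of the genes rose with mcIRBP and 3.35% fell. Of collagen synthesis 4 genes rose, of the laminin list 3, of the interstitial list 5, of the metalloproteinases and inhibitors 2 and of the transforming growth factor beta list 3, and 1 gene, in the interstitial list, fell. Among the receptors 0 of 15 were called by limma, with 4 at an unadjusted p under 0.05. Serpinh1 rose by 0.68 on the log2 scale (adjusted p = 0.00409), Smoc1 by 0.48 (adjusted p = 0.045), Prelp by 1.16 (adjusted p = 0.00039) and Ogn by 0.63 (adjusted p = 0.00195), and all 4 had fallen in diabetic mice. Pcolce, an enhancer of procollagen processing, was at least 1.29-fold higher (adjusted p = 0.000605). The fallen gene was that of vitronectin, Vtn, a plasma protein made mainly in the liver, at -4.49 (adjusted p = 5.913e-08).

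**Figure D4:**
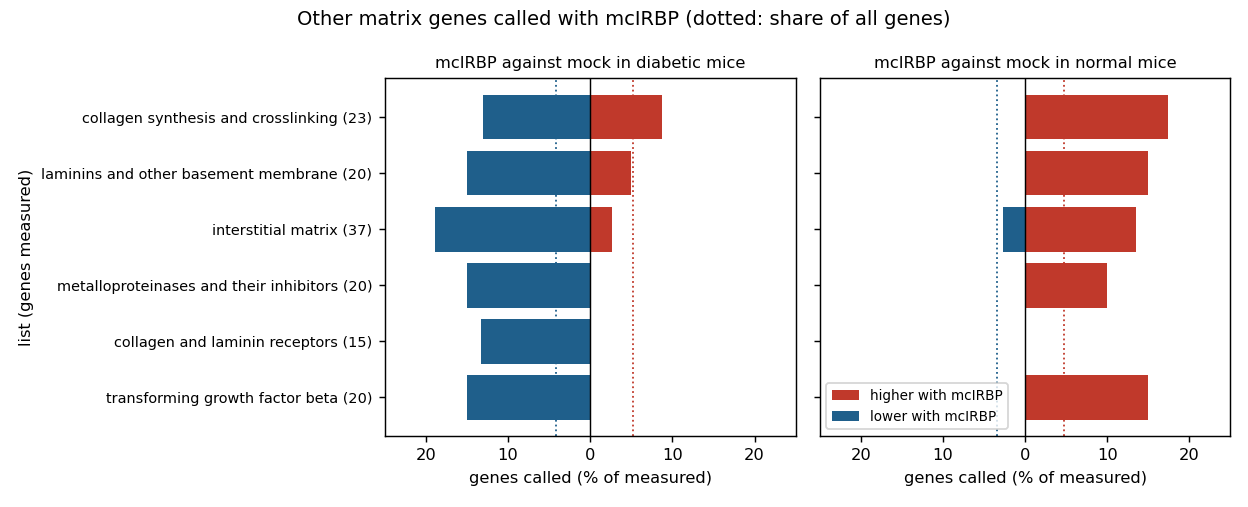
Share of the measured genes of 6 matrix lists that were called higher (red, right of 0) or lower (blue, left of 0) with mcIRBP, in diabetic mice on the left and normal mice on the right, with dotted lines for the shares of all genes. In diabetic mice the blue bars reach past the dotted line in all 6 lists, and in normal mice the red bars in 5 of 6.

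Markers of the cell types that make or border this matrix differed between the groups too. The summed level is the sum of normalized linear intensity above the offset over a list. For the 25 member probes ever above the threshold it was 1417 to 1603 with mcIRBP and 3304 to 3438 with mock in diabetic mice, and 2242 to 5378 with mcIRBP and 2410 to 3244 with mock in normal mice. The 14 fibroblast markers summed to 2221 to 3259 with mcIRBP and 12560 to 13910 with mock in diabetic mice, and to 7587 to 23890 with mcIRBP and 8538 to 9801 with mock in normal mice. The 14 adipocyte markers summed to 7119 to 8176 with mcIRBP and 58720 to 59940 with mock in diabetic mice, and to 63540 to 77080 with mcIRBP and 36970 to 45850 with mock in normal mice. For the 14 endothelial markers the sums were 535.4 to 643.9 with mcIRBP and 1167 to 1251 with mock in diabetic mice, and 1699 to 1879 with mcIRBP and 1015 to 1145 with mock in normal mice. On these 3 lists the diabetic mcIRBP arrays were the lowest of the 4 groups, as for the members. The sums of the smooth muscle and macrophage lists stood the opposite way in diabetic mice, although more of their called markers fell than rose. The 12 smooth muscle and pericyte markers summed to 1193 to 1573 with mcIRBP and 758.6 to 858.2 with mock in diabetic mice, and to 393 to 673.3 with mcIRBP and 406 to 434.2 with mock in normal mice. The 15 macrophage markers summed to 2404 to 2625 with mcIRBP and 1999 to 2132 with mock in diabetic mice, and to 1668 to 2281 with mcIRBP and 973.9 to 1076 with mock in normal mice.

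With mcIRBP in diabetic mice, 3 of the fibroblast markers fell, 11 of the adipocyte markers and 7 of the endothelial markers, and 0 rose in any of these lists. Of the smooth muscle and pericyte markers 2 rose and 3 fell, and of the macrophage markers 1 rose and 7 fell. Over all genes 5.19% rose and 4.19% fell. The adipocyte genes Plin, Lep, Pparg and Thrsp and the endothelial genes Tek, Kdr, Flt1, Vwf, Eng and Sox18 were below the threshold on all 3 diabetic mcIRBP arrays. Markers of other tissues rose. The 18 epididymis markers summed to 80420 to 86160 on the diabetic mcIRBP arrays, against 1959 to 2107 on the diabetic mock arrays, and all 18 rose. The 11 epithelial markers summed to 2546 to 2908, against 225.1 to 286.6, and 9 rose. The part of these tissues in the changes of Col4a1, Nid1, Sparc and Col15a1 was not tested.

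In normal mice 4 of 14 fibroblast, 3 of 14 adipocyte, 5 of 14 endothelial and 5 of 15 macrophage markers rose with mcIRBP, and 0 fell in these lists. Of 20 skeletal muscle markers 4 fell, and of 11 epithelial markers 3 did. Over all genes 4.76% rose and 3.35% fell. The 19 liver markers summed to 325.5 to 416.8 on the normal mcIRBP arrays, against 52960 to 55760 on the normal mock arrays, and all 19 fell. The diabetic arrays were as low as the normal mcIRBP arrays or lower in liver markers, at 197.9 to 241.1 with mcIRBP and 197 to 217.5 with mock. The part of the liver signal in the normal mock levels of the members, Col18a1 among them, was not tested. The fibroblast list shares 5 genes with the interstitial list, and the endothelial list shares Eng with the list of transforming growth factor beta.

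**Figure D5:**
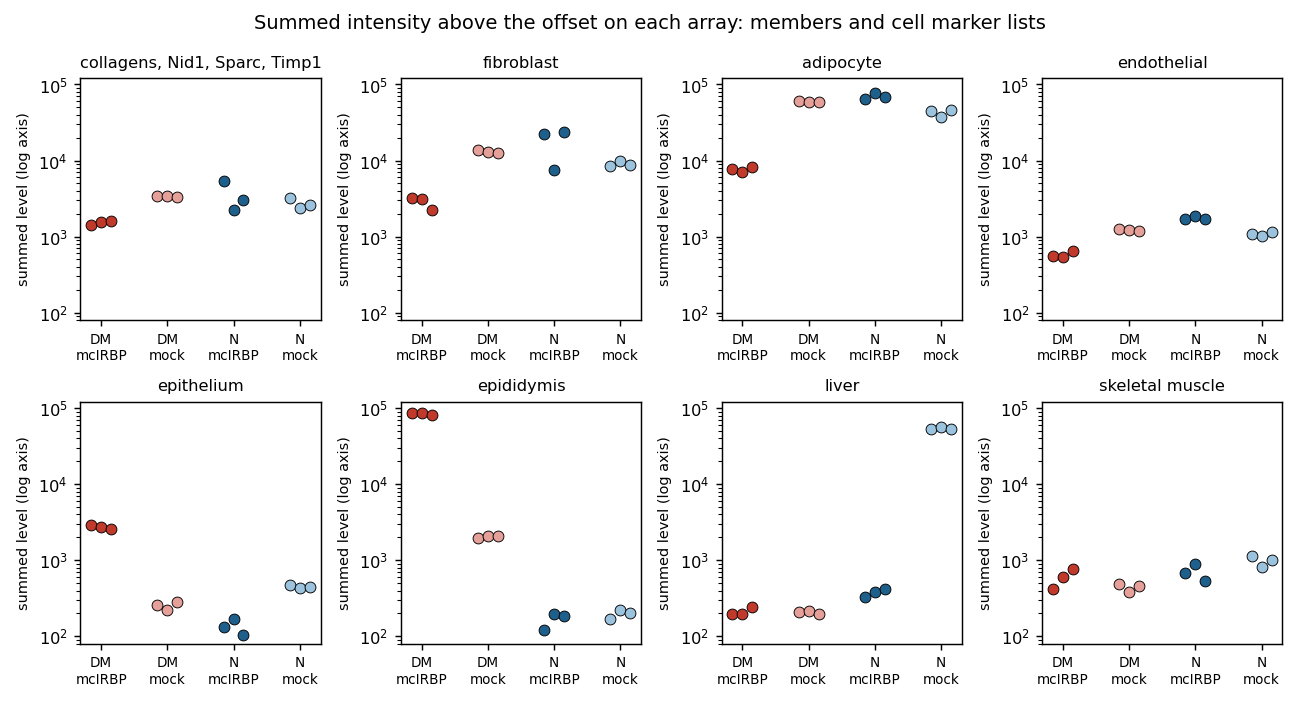
Summed normalized intensity above the offset (log axes, arbitrary units) on each array for the 25 member probes ever above the threshold and for 7 marker lists, by group. The members, fibroblast, adipocyte and endothelial panels are lowest on the 3 diabetic mcIRBP arrays, where the epididymis panel is highest, and the liver panel is highest on the 3 normal mock arrays.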

How the data were processed

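RNA of 12 samples (5 µg each, RNeasy Mini kit) had been amplified, labelled with Cy5 and hybridised to 1-colour arrays of 29922 probes, per the labels' protocols. The deposited files give raw intensities on a linear scale as whole numbers, and intensities that the authors had normalized separately within each disease state. How the scanner handled background is not stated in the labels or headers, and limma is named in the submitters' processing notes without a version. The platform annotation gives 1 symbol for 21020 probes and none for 8902, and all 41 member genes matched RefSeq.

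Raw intensities were background-corrected (normexp, offset 50), log2-transformed and quantile-normalized over the 12 arrays. limma 3.58.1 (R 4.3.3) was fitted with 1 mean for each of the 4 groups (8 residual degrees of freedom) and tested on simulated data. P-values were adjusted over all probes, and the 5 comparisons share arrays. Where a group of 3 was wholly below the threshold, a fold is a bound against that threshold, or none is given where the bound is under 1. Precision is limited by the 3 arrays of a group.

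The members, the gene lists and the tests were chosen with earlier results of these data known. Named were member probes called in a comparison with groups that did not overlap (at most 12, by lowest p), the probes of Nid1, Sparc, Timp1 and 10 collagen genes of types I, III, IV, V, VI, XV and XVIII in any case, and up to 3 called genes of each list. Col20a1, Col14a1 and other members outside this rule entered the counts only. Alternatives were median scaling, the deposited normalized intensities, no background correction, only probes above the threshold, 1 probe a gene, array weights, only the 6 arrays compared, the replicate number as a block, and each array left out in turn.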

Additional observations from a re-analysis of the deposited data

Results flagged for a closer look

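The mcIRBP effect differed between diabetic and normal mice for 10 member probes, by limma's test of the difference itself (threshold of 0.05, log2 scale, diabetic minus normal). The differences were -0.78 for Col15a1, -1.78 for Col5a1, -1.41 for Sparc, -2.15 for Nid1, -0.63 for Col6a2, -0.60 for Col1a1 (adjusted p = 0.0137), -0.60 for Col8a1 (0.0254), -1.24 for Col6a3 (0.044), 0.26 for Col11a1 (0.0223) and 0.38 for Col27a1 (0.0422). The probes of Col11a1 and Col27a1 were below the threshold on all 12 arrays.

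The call of Col6a3 was kept under 7 of 17 alternatives and that of Col8a1 under 11 of 17, with adjusted p of up to 0.107 and 0.0801 when 1 array was left out. That of Col11a1 was kept under 10 of 16 and that of Col27a1 under 7 of 16, with adjusted p of up to 0.0888 and 0.119 when 1 array was left out. Col1a1 lost its call only with array weights.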

How the results depend on the processing

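The number of member calls moved with several settings. mcIRBP against mock in diabetic mice gave 6 calls, but 15 under median scaling, 14 with the deposited normalized intensities, 13 over the 6 arrays compared and 19 with array weights. Of all probes 6.71% were called with the main settings, and 13.5%, 14.6%, 14.2% and 23.3% in these alternatives. In normal mice the 5 calls became 0 under median scaling (13 at an unadjusted p under 0.05 in limma), 0 with the deposited normalized intensities (10), 0 over the 6 arrays compared (11), 1 with array weights and 3 among probes above the threshold. The shares of all probes were 6.34% with the main settings, then 0.976%, 1.8%, 1.65% and 2.08%, and 15.3% of the probes above the threshold. Diabetic mock against normal mock gave 11 calls (8.71% of all probes), 35 under median scaling (50.4%) and 6 among probes above the threshold (18.1% of those probes). Diabetic mcIRBP against normal mcIRBP gave 10 (11.7% of all probes), and 3 under median scaling (4.7%) or 5 over the 6 arrays compared (6.85%). The difference of the effects gave 10 (9.22% of all probes), and 19 under median scaling (21%).

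Leaving out 1 array gave 4 to 6, 4 to 6, 4 to 13, 6 to 11 and 6 to 10 calls in these 5 comparisons. The shares of all probes then ran from 4.26% to 5.47%, 5.66% to 9.59%, 3.77% to 12.2%, 7.45% to 12% and 6.37% to 11.7%. The lowest member counts came without diabetic mock replicate 1 or 3 for the mock groups (4), and without diabetic mcIRBP replicate 1 or 2 for the mcIRBP groups (6), and for the difference without any 1 diabetic mock array or diabetic mcIRBP replicate 1 or 2 (6). Col3a1 in normal mice ranged from -0.47 to 0.77, the highest without normal mcIRBP replicate 2, and Col18a1 between the mock groups turned to 0.46 under median scaling. The cause was not tested.

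Deviations of same-numbered arrays correlated at -0.337 to 0.243. With so few arrays in a group, these values cannot decide whether same-numbered arrays were paired or shared a batch. What the replicate number stands for was not tested. With the replicate block the calls were 6, 6, 9, 10 and 8, against 5.85%, 5.08%, 6.53%, 9.97% and 7.96% of all probes. Without background correction the counts did not move, and with 1 probe a gene they were 6, 4, 10, 9 and 9. Over all probes, median scaling gave 4050 calls in diabetic mice against 2009, 292 against 1898 in normal mice, 15092 against 2606 between mock groups, 1407 against 3508 between mcIRBP groups and 6297 against 2760 for the difference. Probes at the floor limit what can be seen of 20 genes.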
